A study of Homo sapiens with 6 samples.

Results

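The genes described here are 9 genes of MHC class I antigen presentation, found by symbol in the table of all libraries, which lists 17064 genes. They comprise 5 class I heavy chain genes (HLA-B, HLA-C, HLA-E, HLA-F and HLA-G), the light chain gene B2M and 3 genes of peptide loading (TAP1, TAP2 and TAPBP). A class I molecule is a membrane-bound heavy chain paired with β2-microglobulin, the product of B2M, and it carries a short peptide to the cell surface, where T cells read it. TAP1 and TAP2 together form the transporter that brings peptides from the cytosol into the endoplasmic reticulum, and tapasin, the product of TAPBP, holds the empty class I molecule beside that transporter while a peptide is chosen. HLA-B and HLA-C are classical class I genes that nearly all nucleated cells express and that interferons induce, whereas HLA-E, HLA-F and HLA-G are non-classical genes, of which HLA-G is best known from the placenta.

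RNA was sequenced from MDA-MB-231 cells, an established line of triple-negative breast cancer, in which the kinase genes CDC42BPA (encoding MRCKα) and CDC42BPB (encoding MRCKβ) had been targeted by lentiviral CRISPR. The 6 libraries comprise 2 of cells with the empty vector, 1 of CDC42BPA knockout cells (MRCKα KO), 1 of CDC42BPB knockout cells (MRCKβ KO) and 2 of cells with both genes knocked out (DKO). All cells, controls included, had been transduced with a lentiviral vector packaged in HEK293T cells and selected with puromycin or blasticidin, and none was a picked clone. The vector libraries came from separate transductions and the DKO libraries from different guide sets, and which guide set belongs to which DKO library is not given in the labels.

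The libraries held between 10349898 and 10657857 expected counts, and between 12911 and 13038 genes reached 10 counts in a library. RNA of both targeted genes was present in every library. CDC42BPA was at 254 to 282 CPM in the libraries in which it was targeted, inside the range of the vector libraries (230 and 363 CPM), so its RNA does not check those labels. CDC42BPB was at 171 CPM in MRCKβ KO and at 153 and 152 CPM in DKO, below its 176.5 CPM in MRCKα KO and 194 and 202 CPM in vector. This order goes with the labels. MRCKβ KO and MRCKα KO lie closer together than the vector libraries do, so CDC42BPB does not tell their labels apart. Genes known to be high in MDA-MB-231 (VIM, CD44, AXL, CAV1 and KRT18) summed to between 59669 and 79853 counts. The 4 leukocyte markers listed in the table, of 7 looked for, summed to between 124.5 and 158.3 counts, mostly of LYZ. PTPRC had between 7.05 and 34.28 counts and CD14 between 2 and 20, above 0 in every library, and CD3E was at 0 in 5 libraries. The fibroblast list summed to 289 counts in vector 1 and to between 134 and 162 elsewhere. Of the HEK293T genes, NEFM had 19 counts and LIN28B 10 in MRCKα KO, against at most 2 and 1 in any other library. ZIC2, the most abundant gene of that list, had 389 counts in both single knockout libraries and between 460 and 700 elsewhere. Whether these genes bear on the values of MRCKα KO was not tested.

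The genes other than B2M lie in the MHC of chromosome 6. In GENCODE v29 on GRCh38, HLA-F spans chr6:29722775-29738528, HLA-G chr6:29826967-29831125 and HLA-E chr6:30489467-30494205, all on the plus strand. HLA-C at chr6:31268749-31272130 and HLA-B at chr6:31269491-31357188 lie on the minus strand, and the annotated span of HLA-B runs across HLA-C. TAP2 at chr6:32821833-32838780, TAP1 at chr6:32845209-32853978 and TAPBP at chr6:33299694-33314387 are also on the minus strand. TAP1 overlaps PSMB9, a proteasome gene, and TAP2 overlaps the gene model AL669918.1. B2M spans chr15:44711487-44718877 on the plus strand.

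The promoters of 6 of these genes are shown because the family is known for shared upstream elements, bound by NF-κB, by interferon regulatory factors and by CCAAT-binding proteins. Each line gives the 250 bases before the RefSeq transcription start, 5′ to 3′ along the gene, on GRCh38.p14. Capitals mark matches on either strand to GGGANTNCC or the same with TT in place of its T (κB), to AANNGAAA (the short core of an interferon-stimulated response element), to GAAANNGAAA (the longer element, which contains the short core) and to CCAATCA.
HLA-B, chr6:31357180-31357429, minus strand: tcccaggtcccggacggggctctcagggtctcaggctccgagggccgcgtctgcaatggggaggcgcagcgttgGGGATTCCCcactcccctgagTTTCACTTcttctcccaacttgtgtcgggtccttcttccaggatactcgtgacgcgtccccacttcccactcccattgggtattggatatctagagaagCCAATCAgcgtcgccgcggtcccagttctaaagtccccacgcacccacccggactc
HLA-C, chr6:31272093-31272342, minus strand: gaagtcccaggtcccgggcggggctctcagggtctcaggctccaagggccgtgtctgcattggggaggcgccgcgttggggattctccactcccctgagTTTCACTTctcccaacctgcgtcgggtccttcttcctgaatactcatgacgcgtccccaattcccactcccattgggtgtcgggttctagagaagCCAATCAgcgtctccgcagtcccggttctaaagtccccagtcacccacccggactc
HLA-G, chr6:29827575-29827824, plus strand: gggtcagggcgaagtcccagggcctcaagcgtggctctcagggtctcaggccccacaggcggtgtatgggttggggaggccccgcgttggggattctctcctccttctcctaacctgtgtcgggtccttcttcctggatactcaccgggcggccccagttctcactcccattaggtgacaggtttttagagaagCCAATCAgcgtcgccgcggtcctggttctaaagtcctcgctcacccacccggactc
B2M, chr15:44711267-44711516, plus strand: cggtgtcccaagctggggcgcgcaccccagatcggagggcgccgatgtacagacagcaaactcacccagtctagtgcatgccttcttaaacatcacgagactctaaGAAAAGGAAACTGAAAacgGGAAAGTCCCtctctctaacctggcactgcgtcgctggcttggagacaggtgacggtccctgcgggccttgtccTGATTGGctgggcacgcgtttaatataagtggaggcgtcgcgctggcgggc
TAP1, chr6:32853705-32853954, minus strand: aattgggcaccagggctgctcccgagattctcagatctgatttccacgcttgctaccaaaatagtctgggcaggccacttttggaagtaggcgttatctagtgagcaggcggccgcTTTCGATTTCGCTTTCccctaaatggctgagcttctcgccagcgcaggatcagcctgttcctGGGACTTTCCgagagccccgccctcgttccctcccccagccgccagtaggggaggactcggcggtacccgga
TAPBP, chr6:33314079-33314328, minus strand: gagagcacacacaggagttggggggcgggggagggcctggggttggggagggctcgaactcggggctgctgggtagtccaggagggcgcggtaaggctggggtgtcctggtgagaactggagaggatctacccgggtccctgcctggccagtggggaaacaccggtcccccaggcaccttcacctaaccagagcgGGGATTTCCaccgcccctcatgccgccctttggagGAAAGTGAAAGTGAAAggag

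RefSeq promoters were at hand for 8 of the 9 genes, in 11 windows of 300 bases that end 50 bases after a start. The κB motif was found in 4 of these genes (HLA-B, B2M, TAP1 and TAPBP), and 5.27% of 35116 promoters of the same length hold it. The longer interferon element was found in 5 (HLA-F, B2M, TAP1, TAP2 and TAPBP), against 3.57% of all promoters. The short core was found in 7, against 22.8%, and CCAATCA in 5 (HLA-B, HLA-C, HLA-F, HLA-G and B2M), against 6.95%. The windows of HLA-B, HLA-C and HLA-G hold CCAATCA at the same place, beginning 56 bases before the start. HLA-G held neither κB nor the short core in any of its windows. A match is a run of letters in this window and was not tested as a binding site.

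Levels of different genes are compared here per transcript length, as FPKM. In the vector libraries B2M stood highest, at 483.3 ± 51.3 FPKM (SD, n = 2). HLA-B followed at 94.96 ± 34.3 FPKM (SD, n = 2), HLA-C at 87.65 ± 15.2 and HLA-E at 78.85 ± 0.559, and these neighbours overlapped in their libraries. Their order was not fixed: in vector 1 HLA-E had the highest of the 3 levels and HLA-B the lowest (78.46 and 70.73 FPKM), and in vector 2 HLA-B was highest and HLA-E lowest (119.19 and 79.25 FPKM). TAPBP was at 62.4 ± 1.07 FPKM (SD, n = 2), below both vector libraries of each of these heavy chain genes. TAP2 was at 33.1 ± 6.03, HLA-F at 24.6 ± 1.27 and TAP1 at 21.3 ± 1.47 FPKM, without overlap between neighbours in vector, although HLA-F and TAP1 overlapped in DKO. HLA-G stood lowest, at 1.82 ± 0.764 FPKM (SD, n = 2).

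In the DKO libraries the order was alike at its ends. B2M was at 406.5 ± 21.2 FPKM (SD, n = 2), HLA-B at 93.45 ± 15.3, HLA-C at 85.1 ± 6.6, HLA-E at 80.9 ± 3.85, TAPBP at 60.0 ± 6.24, TAP2 at 34.1 ± 3.76, HLA-F at 22.8 ± 4.53, TAP1 at 22.15 ± 1.2 and HLA-G at 0.585 ± 0.0212. For each of the 9 genes except B2M and HLA-G, the DKO libraries overlapped the vector libraries in FPKM.

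**Figure D1:**
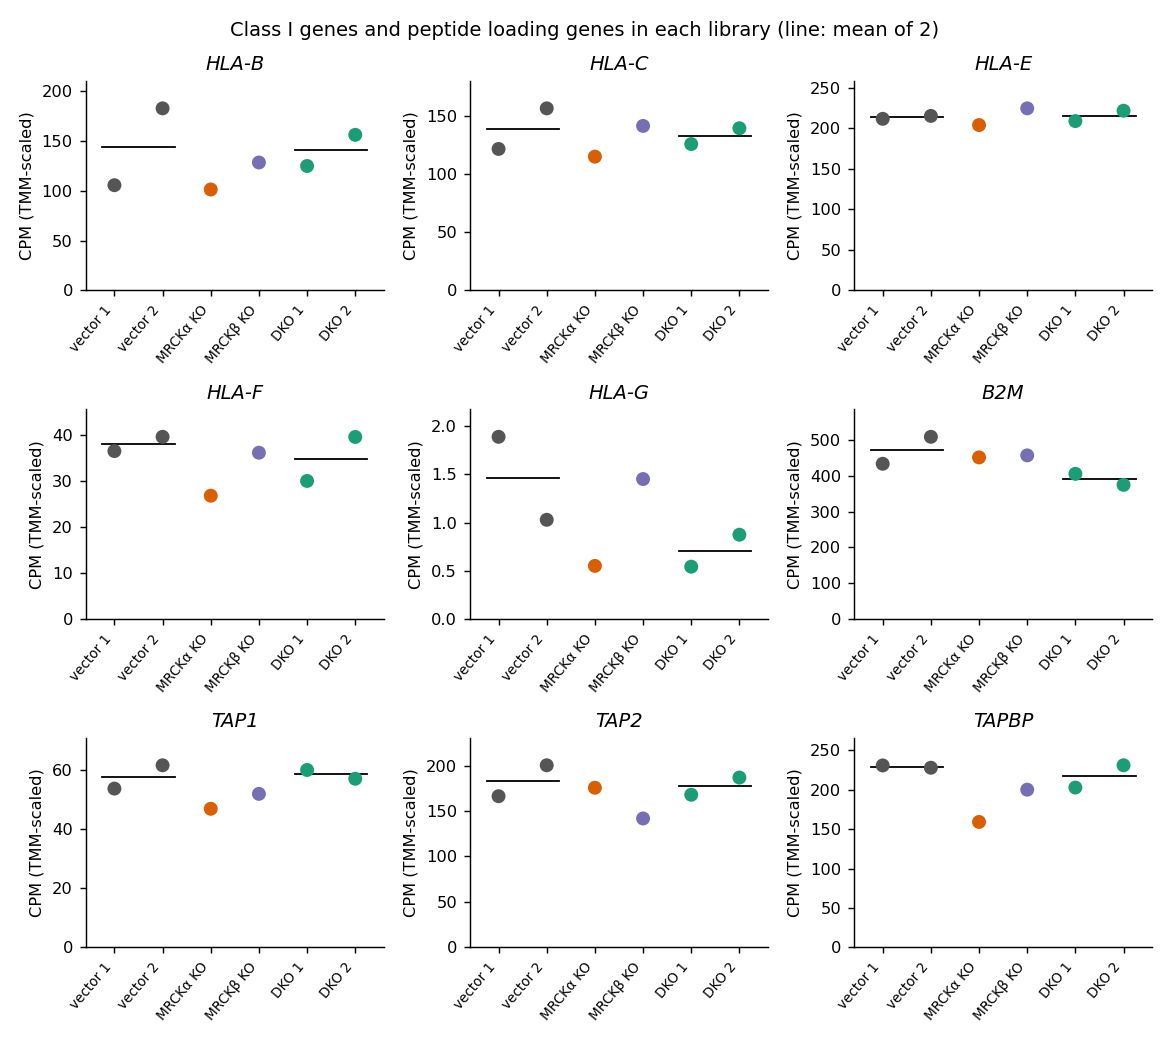
TMM-scaled CPM of each gene (vertical axes, from 0) in the 6 libraries (horizontal axes). Points are libraries and lines are means of the 2 vector and the 2 DKO libraries. HLA-B spans 101.5 to 183 CPM with its vector libraries near both ends, and TAPBP is at 159 CPM in MRCKα KO against 227.7 to 230.8 CPM in vector 1, vector 2 and DKO 2.

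The question the design puts is whether loss of either or both kinases alters the level of these transcripts. For comparisons of 1 gene between libraries, CPM are used, the expected counts divided by TMM-scaled library totals, since the tests ran on those counts. DKO and vector are the groups with replicates. In RNA from whole cultures, fewer cells that express a gene and less RNA per cell cannot be told apart.

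Neither heavy chain, light chain nor loading genes changed in DKO by the test across all genes. By the quasi-likelihood test of edgeR, adjusted by Benjamini-Hochberg, 0 of the 9 genes passed an adjusted p of 0.05 and the adjusted p was 1.0 for each, and 0.0% of the 13123 genes tested passed, so the test called nothing anywhere. At an unadjusted p under 0.05, 0 of the 9 genes passed, against 2.39% of all genes (313 genes). DESeq2, run on the same counts, called 4 genes in all and none of the 9. The median log2 fold change of the 9 genes was -0.06, with a range from -1.05 to 0.02, beside a median of 0.0 over all genes tested. All 9 passed the filter on low counts, HLA-G through the vector libraries alone, and the lowest value, -1.05, is that of HLA-G.

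HLA-B, a classical heavy chain gene, was at 105.8 and 183 CPM in vector 1 and 2, 101.5 in the MRCKα KO library, 128.6 in the MRCKβ KO library, and 125.1 and 156.4 in DKO 1 and 2. Every knockout library other than MRCKα KO lay between the vector libraries, which were themselves 0.79 apart on the log2 scale (95% interval 0.68 to 0.90 from the counts alone). The log2 fold change in DKO was -0.03 ± 0.26 (SE), with a 95% interval from -0.67 to 0.60. It was 0.41 without vector 2, -0.37 without vector 1 and 0.12 without DKO 1, so its sign turned with the library left out.

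HLA-C, the other classical gene, was at 121.7 and 156.6 CPM in vector 1 and 2, 115.1 in the MRCKα KO library, 141.5 in the MRCKβ KO library, and 125.9 and 139.5 in DKO 1 and 2. It had the same order of libraries as HLA-B at both ends, lowest in MRCKα KO and highest in vector 2. Its log2 fold change in DKO was -0.06 ± 0.15 (SE; 95% interval -0.44 to 0.31) and was 0.13 without vector 2. Over the 6 libraries the log2 CPM of HLA-B and HLA-C had a Pearson r of 0.94, a description over libraries that share controls. The genes are also close in sequence, and reads can be divided between them.

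HLA-E, which presents peptides from the leaders of other class I chains to natural killer cell receptors, had the smallest range of the 9 genes over the 6 libraries, relative to its level. It was at 211.7 and 215.3 CPM in vector 1 and 2, 204 in the MRCKα KO library, 224.6 in the MRCKβ KO library, and 208.9 and 221.7 in DKO 1 and 2. The log2 fold change in DKO was 0.02 ± 0.11 (SE), with a 95% interval from -0.25 to 0.28.

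HLA-F, a non-classical gene, was at 36.5 and 39.6 CPM in vector 1 and 2, 26.8 in the MRCKα KO library, 36.1 in the MRCKβ KO library, and 30.0 and 39.5 in DKO 1 and 2. The DKO libraries lay on different sides of vector 1, and the log2 fold change in DKO was -0.12 ± 0.17 (SE; 95% interval -0.55 to 0.30). Without DKO 1 it was 0.06.

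The expected counts of the 5 heavy chain genes were also summed, since reads of 1 gene can be assigned to another of this family. The sum was 5061 and 6093 in vector 1 and 2, 4660 in the MRCKα KO library, 5631 in the MRCKβ KO library, and 5152 and 5935 in DKO 1 and 2. As 1 feature in the same fit the sum had a log2 fold change of -0.03 in DKO, beside a median of -0.06 over the 5 genes fitted singly. MRCKα KO was the lowest library of the sum as well. Among windows of 50 bases of a transcript, 2.2% in HLA-B, 3.77% in HLA-C, 4.0% in HLA-E, 1.51% in HLA-F and 4.38% in HLA-G recur in another of the 9 genes, and 21.0%, 6.79%, 5.76%, 41.7% and 28.1% recur in some other annotated gene. In TAP1 15.2% and in TAP2 35.8% of windows recur in some other annotated gene, and in B2M no window does. TAPBP was not searched. The deposited counts of B2M were whole in each library, whereas those of every other gene of the 9 had decimals in at least 1 library.

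HLA-G rested on few reads. Its expected counts were 20.03 and 10.53 in vector 1 and 2, 5.73 in the MRCKα KO library, 15.36 in the MRCKβ KO library, and 5.70 and 9.30 in DKO 1 and 2, which are 1.89, 1.03, 0.551, 1.45, 0.543 and 0.874 CPM. The DKO libraries lay below both vector libraries, by little in the case of DKO 2 and vector 2. HLA-G passed the filter through the vector libraries, which favours a lower value in DKO, so its log2 fold change there, -1.05 ± 0.60 (SE; 95% interval -2.51 to 0.41), is given as a description. It was also -1.05 with no filter, which is no check of this, since the filter chooses genes and leaves their counts as they are. Without vector 1 it was -0.59, and without vector 2 it was -1.40.

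HLA-G was the only gene of the 9 past 2-fold by the rule the study used, in which FPKM values of replicates are averaged and a log2 ratio of -1 or lower counts as lower. Its log2 FPKM ratio was -1.64 in DKO, the value that the study also lists among its most lowered genes there, and -1.40 in MRCKα KO. The study also left out poorly expressed genes, by a limit it does not state, and that step was not applied here. By the same rule 0.759% of 12254 genes counted as lower in DKO, 2.48% of 12864 in MRCKα KO and 1.84% of 12903 in MRCKβ KO, where none of the 9 genes did. Against vector 2 alone the ratio in MRCKα KO was -0.89, short of 2-fold, and in DKO it was -1.13. With 1 added to each FPKM the ratios were -0.74 and -0.83.

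Part of the FPKM ratio of HLA-G in DKO came from the listed transcript length, by which FPKM divides. The length was 821 bases in vector 1, vector 2 and MRCKα KO, 884.64 in the MRCKβ KO library, and 985.93 and 1495 in DKO 1 and 2. On the log2 scale the mean count was 1.03 lower and the mean length 0.60 higher in DKO than in vector. In the other 8 genes the lengths of DKO and vector differed by at most 0.07 on that scale. The TMM-scaled counts, which carry no length, gave HLA-G a log2 ratio of -1.04.

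**Figure D2:**
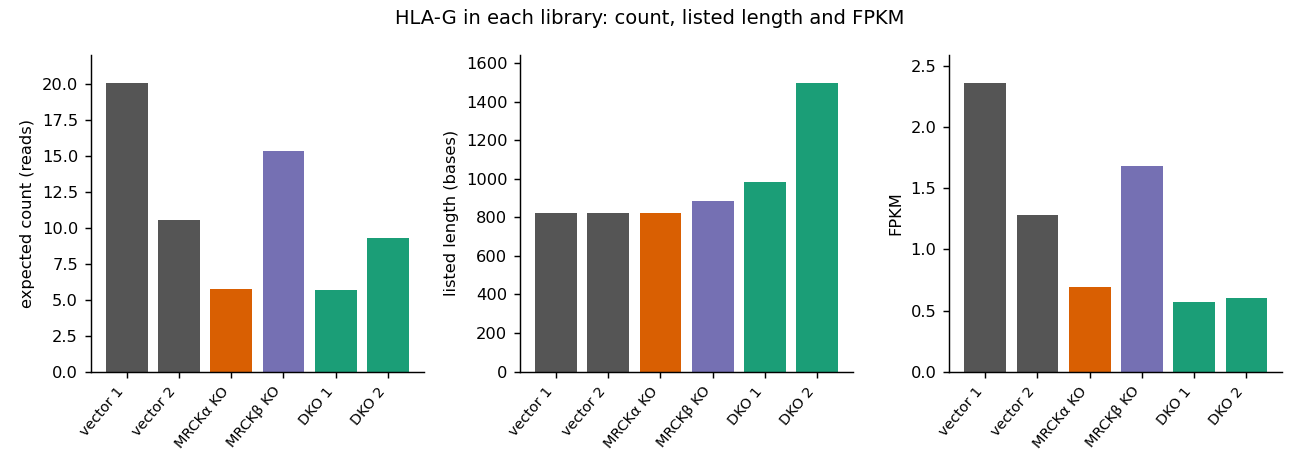
Expected count, listed transcript length in bases and FPKM of HLA-G (vertical axes, from 0), 1 bar per library and no error bars. The count is at most 20.03 reads, and the listed length is highest, at 1495 bases, in DKO 2.

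B2M was at 434.2 and 509.6 CPM in vector 1 and 2, 452 in the MRCKα KO library, 457.7 in the MRCKβ KO library, and 406 and 375.2 in DKO 1 and 2. Both single knockout libraries lay between the vector libraries, and both DKO libraries lay below them. The log2 fold change in DKO was -0.27 ± 0.13 (SE), with a 95% interval from -0.59 to 0.05, an unadjusted p of 0.0843 and an adjusted p of 1.0 by edgeR's quasi-likelihood test. Leaving out 1 library gave values from -0.38, without vector 1, to -0.15, without vector 2. Counted against single vector libraries, the log2 ratio of DKO 1 was -0.10 (95% exact binomial interval -0.16 to -0.04) to vector 1 and -0.33 (-0.39 to -0.27) to vector 2, and that of DKO 2 was -0.21 (-0.27 to -0.15) and -0.44 (-0.50 to -0.38). These intervals cover counting error only, and the vector libraries differed from each other by 0.23 (0.17 to 0.29). B2M rests on 3991 to 5213 reads per library, and the counting interval of each of these ratios was narrower than the distance between the vector libraries.

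TAP1, which encodes an ATP-binding chain of the peptide transporter, was at 53.6 and 61.4 CPM in vector 1 and 2, 46.8 in the MRCKα KO library, 51.8 in the MRCKβ KO library, and 59.9 and 56.9 in DKO 1 and 2. Both DKO libraries lay between the vector libraries, and the log2 fold change was 0.02 ± 0.14 (SE; 95% interval -0.31 to 0.36). TAP1 overlaps PSMB9, and whether the counting used strand is not given in the sources used here, so reads of the overlap cannot be told apart.

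TAP2, its partner, was at 166.3 and 200.3 CPM in vector 1 and 2, 175.6 in the MRCKα KO library, 141.8 in the MRCKβ KO library, and 167.9 and 186.8 in DKO 1 and 2. MRCKβ KO was the lowest library, and both DKO libraries lay between the vector libraries. The log2 fold change in DKO was -0.04 ± 0.14 (SE; 95% interval -0.38 to 0.29). On FPKM, fitted with limma on log2(FPKM + 0.1), it was 0.05.

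TAPBP and HLA-E had the least distance between the vector libraries, and TAPBP was at 230.6 and 227.7 CPM in vector 1 and 2. It was at 159 CPM in the MRCKα KO library, 199.9 in the MRCKβ KO library, and 202.6 and 230.8 in DKO 1 and 2. DKO 1 and both single knockout libraries lay below vector, and DKO 2 lay level with it. The log2 fold change in DKO was -0.08 ± 0.12 (SE; 95% interval -0.37 to 0.21), and 0.01 without DKO 1.

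**Figure D3:**
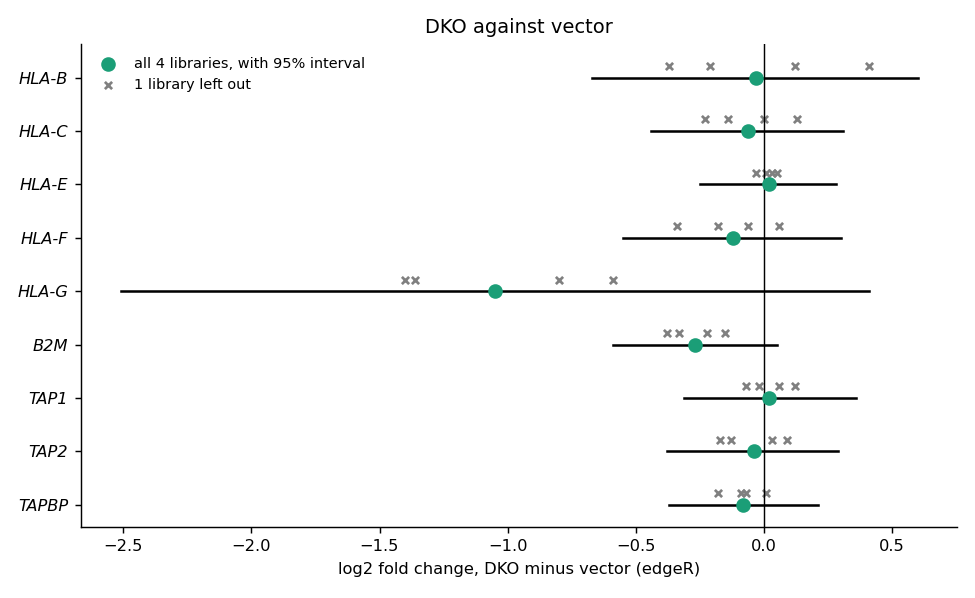
Log2 fold change of each gene in DKO minus vector by edgeR (horizontal axis), with green points for all 4 libraries, black lines for 95% intervals and grey crosses for fits with 1 library left out. Every interval includes 0, and leaving out a library moves HLA-B from -0.37 to 0.41.

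MRCKα KO and MRCKβ KO were sequenced once each, without a replicate check, and no test of them was made. Their values are set against the 2 vector libraries, which the DKO comparison also uses. In MRCKα KO, 7 of the 9 genes lay below both vector libraries (all but B2M and TAP2) and 0 lay above both. Among these 7 is HLA-G, whose place is favoured by the filter. Among the 13123 genes, 29.5% lay below both vector libraries in MRCKα KO and 29.7% above both. MRCKα KO was the lowest of the 6 libraries for 6 of the 9 genes (HLA-B, HLA-C, HLA-E, HLA-F, TAP1 and TAPBP), against 16.3% of all genes. The 9 genes are few and can share reads. Their median log2 CPM ratio to the vector mean was -0.30 with a range from -1.41 to -0.06, beside 0.0 over all genes. The median FPKM ratio was -0.26, and it was -0.10 against vector 1 alone and -0.42 against vector 2 alone.

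The distance of MRCKα KO from vector differed between the genes. TAPBP was lower by a like amount against either vector library, with log2 ratios of -0.54 (95% exact binomial interval -0.63 to -0.45) to vector 1 and -0.52 (-0.61 to -0.43) to vector 2, while the vector libraries differed by 0.02. HLA-F had ratios of -0.44 (-0.67 to -0.22) and -0.56 (-0.79 to -0.34), and TAP1 had -0.20 (-0.37 to -0.02) and -0.39 (-0.57 to -0.22). HLA-B depended on the control: its ratio was -0.06 (-0.18 to 0.06) to vector 1 and -0.85 (-0.96 to -0.74) to vector 2. HLA-C was similar, at -0.08 (-0.20 to 0.03) and -0.44 (-0.55 to -0.34). HLA-E was at -0.05 (-0.14 to 0.03) and -0.08 (-0.17 to 0.01), where both intervals include 0. For HLA-G the ratios were -1.71 (-3.32 to -0.34) and -0.90 (-2.62 to 0.66), on 5.73 counts. Since these intervals cover counting error in single libraries, they say nothing of the spread between cultures.

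In MRCKβ KO, 4 of the 9 genes lay below both vector libraries (HLA-F, TAP1, TAP2 and TAPBP), against 29.5% of all genes, and 1, HLA-E, lay above both, against 29.7%. The largest distance was that of TAP2, with log2 ratios of -0.23 (95% exact binomial interval -0.33 to -0.13) to vector 1 and -0.50 (-0.60 to -0.40) to vector 2. TAPBP had ratios of -0.21 (-0.29 to -0.12) and -0.19 (-0.27 to -0.10). The median log2 CPM ratio of the 9 genes was -0.07, with a range from -0.37 to 0.07.

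In both DKO libraries B2M lay below both vector libraries, as 14.6% of all genes did, and 0 of the 9 genes lay above both, against 14.4%. HLA-G also lay below, but it passed the filter through the vector libraries and is not counted. TAPBP and HLA-F were at 159 and 26.8 CPM in MRCKα KO. They were at 202.6 and 30.0 CPM in DKO 1 and at 230.8 and 39.5 CPM in DKO 2. B2M went the other way, at 452 CPM in MRCKα KO and at 406 and 375.2 CPM in DKO 1 and 2. Whether MRCKα KO and DKO differ was not tested.

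**Figure D4:**
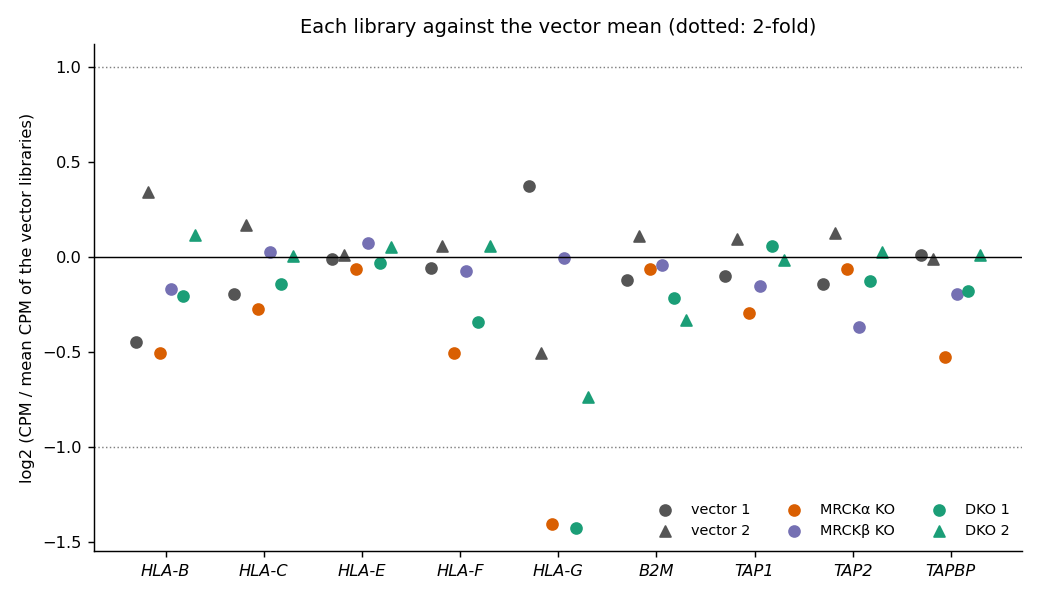
Log2 ratio of CPM in each library to the mean CPM of the vector libraries (vertical axis) for the 9 genes (horizontal axis), with colours for groups and circles or triangles for the libraries of a group. Dotted lines mark 2-fold. MRCKα KO lies below both vector libraries in 7 of 9 genes, against 29.5% of all genes. Among the 7 are HLA-G, whose place is favoured by the filter, and HLA-E, which lies below by little. The vector libraries of HLA-B and HLA-G are the farthest apart.

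The median spread between replicates of these genes was near that of genes at large. These distances were taken on log2 CPM after a small constant was added to each CPM, which shrinks those of low genes such as HLA-G. The vector libraries differed by a median of 0.23 over the 9 genes, with a range from 0.02 to 0.79, beside 0.24 over all genes tested. From its rounded counts, without that constant, HLA-G differed by 0.81 between the vector libraries. With the constant, the DKO libraries differed by a median of 0.15, with a range from 0.07 to 0.40, beside 0.16. In FPKM the vector libraries were 1.84-fold apart in HLA-G and 1.69-fold in HLA-B, within the 2-fold limit of the study's rule.

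A list of 47 further genes of antigen presentation was followed in the same fit, of which 39 passed the filter. None had an adjusted p under 0.05 in DKO, and 2 had an unadjusted p under 0.05 (ERAP1 and IRF1, where 2.39% of all genes did). A log2 fold change below 0 was found in 25, with a median of -0.08, beside a median of 0.0 over all genes tested. In MRCKα KO, 17 of the 39 lay below both vector libraries and 5 above both, in MRCKβ KO 12 and 13, and in DKO 7 and 3. Over all genes these shares were 29.5% and 29.7% in each single knockout and 14.6% and 14.4% in DKO. Both counts in MRCKβ KO and the count below vector in DKO come near these shares. Whether the other counts differ from them was not tested.

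The peptide supply genes make and trim the peptides that TAP carries. Of these 10 genes, 9 had a log2 fold change below 0 in DKO, and none passed the test. Their median was -0.20, beside 0.0 over all genes tested. The share of all genes below 0 was not counted, and the genes share the same vector libraries. ERAP1, the aminopeptidase that trims peptides in the endoplasmic reticulum, was at 115.9 and 139.9 CPM in vector 1 and 2, 90.6 in the MRCKα KO library, 99.0 in the MRCKβ KO library, and 96.2 and 93.9 in DKO 1 and 2. All 4 knockout libraries lay below both vector libraries, which serve as controls for each of them. How many of all genes do so was not counted. The log2 fold change in DKO was -0.42 ± 0.14 (SE; 95% interval -0.75 to -0.09). Its unadjusted p was 0.0198 and its adjusted p 1.0 by edgeR's quasi-likelihood test. The related ERAP2 was at 13.5 and 16.7 CPM in vector, 11.4 in MRCKα KO and 11.6 and 13.7 in DKO, with a log2 fold change of -0.25 ± 0.22 (SE).

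PSMB8, PSMB9 and PSMB10 encode the catalytic subunits of the immunoproteasome. PSMB8 was at 47.0 and 52.6 CPM in vector, 39.3 in the MRCKα KO library, 48.4 in the MRCKβ KO library and 46.6 and 45.9 in DKO. PSMB9, which overlaps TAP1, was at 10.7 and 15.25 CPM in vector, 9.996 in the MRCKα KO library, 14.0 in the MRCKβ KO library and 9.8 and 11 in DKO. PSMB10 was at 17.2 and 25.3 CPM in vector, 13.1 in the MRCKα KO library, 18.0 in the MRCKβ KO library and 18.4 and 14.95 in DKO. MRCKα KO lay below both vector libraries in each of them, in PSMB9 by little, where 29.5% of all genes did so. Their log2 fold changes in DKO were -0.10 ± 0.13, -0.31 ± 0.26 and -0.35 ± 0.24 (SE). Of the activator subunits, PSME1 was at 108.2 and 110.9 CPM in vector and 95 and 94.7 in DKO, a log2 fold change of -0.21 ± 0.12 (SE), while PSME2 had -0.19 ± 0.22. PSMB6, a subunit of the constitutive proteasome, had the highest value of the list part, 0.06 ± 0.14.

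The 4 chaperones of the endoplasmic reticulum had log2 fold changes in DKO from -0.28 ± 0.48 (SE) in TAPBPL, a tapasin-related editor of peptides at 1.4 to 2.5 CPM, to -0.08 ± 0.14 in CALR, which encodes calreticulin. All 4 were below 0, with a median of -0.16, beside 0.0 over all genes tested. The only chaperone that lay below or above both vector libraries was TAPBPL, below both in MRCKβ KO at 1.51 CPM, as 29.5% of all genes were. Among the 12 genes of transcription and interferon-γ signalling the median was 0.01, and 6 were below 0. IRF1, a transcription factor that binds interferon response elements of class I promoters, was at 45.5 and 57.9 CPM in vector 1 and 2, 29.1 in the MRCKα KO library, 44.0 in the MRCKβ KO library, and 37.1 and 37.45 in DKO 1 and 2. Each knockout library was below both vector libraries, MRCKβ KO by little, and the share of all genes with this pattern was not counted. The log2 fold change in DKO was -0.47 ± 0.16 (SE; 95% interval -0.85 to -0.09). Its unadjusted p was 0.0237 and its adjusted p 1.0 by edgeR's quasi-likelihood test. NLRC5, the transactivator of class I genes, had -0.13 ± 0.16 and was at 21.05 and 22.3 CPM in vector and 20.0 and 19.55 in DKO. RFXAP had the highest value of these genes, 0.17 ± 0.31.

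**Figure D5:**
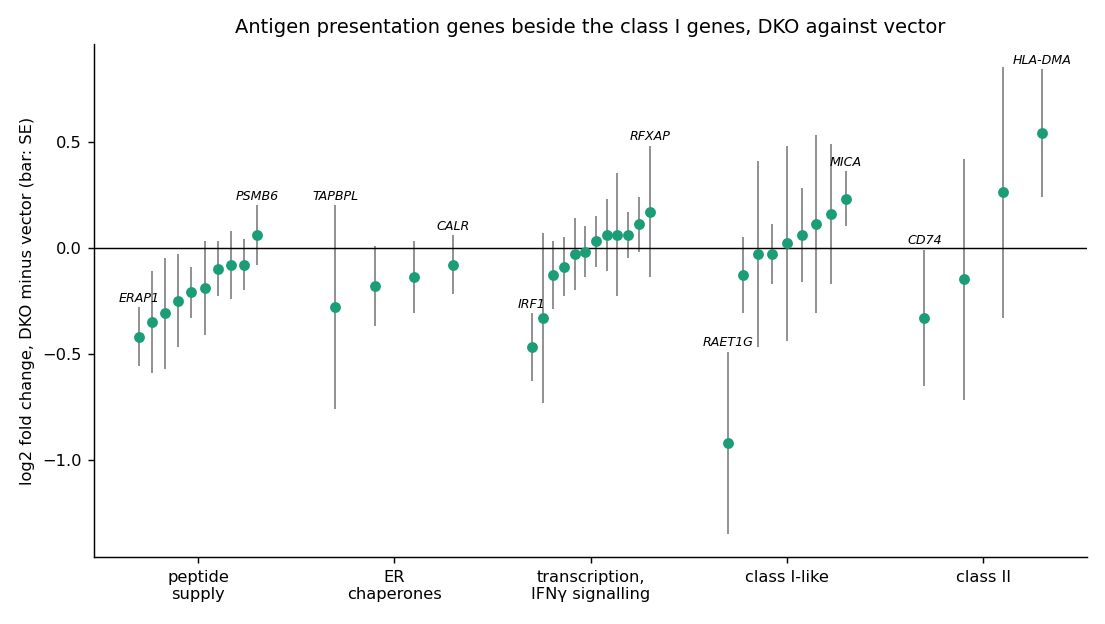
Log2 fold change in DKO minus vector by edgeR (vertical axis) of the 39 tested genes of the antigen presentation list, by role (horizontal axis), with bars for the SE. Of the peptide supply genes 9 of 10 lie below 0, from ERAP1 at -0.42 to PSMB6 at 0.06. The median over all genes tested is 0.0, and no gene has an adjusted p under 0.05.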

How the data were processed

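BGI sequenced 6 libraries of MDA-MB-231 RNA as single-end reads, grouped by the labels into vector (n = 2), MRCKα KO (1), MRCKβ KO (1) and DKO (2). The authors deposited expected counts (estimated reads per gene, not normalized, with decimals) and FPKM (scaled by transcript length and library total, rounded to 2 decimals), with a transcript length per gene and library. The submitters' processing notes name Bowtie2, HISAT, RSEM and GRCh38.p11, with no versions. Expected counts were rounded, filtered by filterByExpr, scaled by TMM and tested with the quasi-likelihood test of edgeR 4.0.16 (R 4.3.3) on the 4 DKO and vector libraries, with Benjamini-Hochberg adjustment at 0.05 over 13123 genes. The test was checked on simulated data. Alternatives used DESeq2 1.42.0, limma 3.58.1, other scalings and filters, a replicate block, and each replicate left out. Ratios of counts of single libraries have exact 95% binomial intervals, which cover counting error only, since reads carry no molecular identifiers. The replicates differ by transduction (vector) or guide set (DKO), and p-values measure the spread between these libraries. The 9 genes and all lists were chosen with earlier results of these data known. Of the list of 47 genes, those named are the immunoproteasome, activator and ERAP genes, NLRC5, IRF1 and the highest and lowest in DKO of each role, and a further gene of that rule is not reported here. Sequences are from RefSeq (GRCh38.p14), and motifs were searched on both strands.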

Additional observations from a re-analysis of the deposited data

How the results depend on the processing

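The number of genes called in DKO, 0 with all libraries and edgeR's quasi-likelihood test, was 4 with DESeq2 and 0 to 5 when 1 library was left out (1 without vector 1, 5 without DKO 1), and none of the 9 genes was among them. The replicate numbers are shared by vector and DKO, and both single knockout libraries are numbered 1. The labels do not say whether libraries with the same number belong together, and this was not tested. The differences of vector 1 from vector 2 and of DKO 1 from DKO 2 had a correlation of 0.334 over 13123 genes, and with the replicate number as a block 5 genes were called, none of them among the 9. Under the block the log2 fold change of HLA-B was 0.01. With limma on log2(FPKM + 0.1) and log2(FPKM + 1) it was 0.02 under both, and that of TAP2 was 0.05 under both. With 1 library left out, HLA-B ranged from -0.37 to 0.41, HLA-C from -0.23 to 0.13, HLA-E from -0.03 to 0.05, HLA-F from -0.34 to 0.06, TAP1 from -0.07 to 0.12, TAP2 from -0.17 to 0.09 and TAPBP from -0.18 to 0.01, so each of these signs turned. HLA-G (-1.40 to -0.59) and B2M (-0.38 to -0.15) had both DKO libraries below both vector libraries, so leaving out 1 could not turn them. The cause was not tested. The lowest adjusted p of any of the 9 genes over these alternatives was 0.46, for B2M without vector 1. HLA-G had too few counts for the filter of 10 counts in every library and has no value there. The median FPKM ratio of the 9 genes in MRCKα KO, -0.26, was -0.42 against vector 2 alone. Of the other values under alternatives, 39 summary values and 264 gene values kept their direction and side of the threshold or moved by less than the spread, and 4 gene values without a test moved by more.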

Other observations

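Of the 12 class I-like genes looked for, whose products resemble class I heavy chains but mostly serve as ligands of natural killer cell receptors or in other pathways, 9 passed the filter and their median log2 fold change in DKO was 0.02. RAET1G, a ligand of the receptor NKG2D, had the lowest value, -0.92 ± 0.43 (SE), with an unadjusted p of 0.0735 and an adjusted p of 1.0 by edgeR's quasi-likelihood test. It was at 4.08 and 3.28 CPM in vector 1 and 2, 3.09 in the MRCKα KO library, 2.97 in the MRCKβ KO library, and 1.54 and 2.35 in DKO 1 and 2, lower in each knockout library than in both vector libraries. MICA, another NKG2D ligand, had the highest value, 0.23 ± 0.13 (SE). Each of its knockout libraries, at 63.6 to 73.9 CPM, lay above both vector libraries, at 62.3 and 58.3 CPM. The share of all genes with every knockout library on the same side of both vector libraries was not counted.

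Of the 9 class II genes looked for, 4 passed the filter, with a median log2 fold change in DKO of 0.06. HLA-DMA, which helps to load class II molecules, had the highest value, 0.54 ± 0.30 (SE; unadjusted p = 0.114, adjusted p = 1.0 by edgeR's quasi-likelihood test). It was at 5.47 and 5.08 CPM in vector, 8.55 in the MRCKα KO library, 11.2 in the MRCKβ KO library, 8.66 in DKO 1 and 6.67 in DKO 2. All 4 knockout libraries thus lay above both vector libraries, and the share of all genes that do so was not counted. CD74, the invariant chain, was the most abundant of the list at 28.1 to 62.8 CPM and had -0.33 ± 0.32 (SE).

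Among 9 interferon-stimulated genes, 7 passed the filter and 5 had a log2 fold change below 0 in DKO. The median was -0.08, beside 0.0 over all genes tested. IFIT1 and IFIT3 had -0.30 ± 0.33 and -0.29 ± 0.31 (SE), IFI6 -0.06 ± 0.24, IFIT2 0.01 ± 0.38, MX1 0.06 ± 0.17 and ISG15 -0.08 ± 0.19. The DKO libraries stood far apart in IFIT3, with DKO 1 at 121 CPM between the vector libraries, at 97.95 and 127.6 CPM, and DKO 2 below both at 62.75 CPM. BST2, with -0.17 ± 0.13 (SE), was at 84.8 and 82.1 CPM in vector, 68.9 in the MRCKα KO library, 82.15 in the MRCKβ KO library and 70.1 and 77.9 in DKO. OAS1 and IFI27 did not pass the filter, and no gene of this list had an unadjusted p under 0.05.

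Over the 6 libraries the genes whose log2 CPM was most like that of HLA-B, of 9455 genes with at least 100 counts in every library, were POLD2 (Pearson r of 0.997), CD82 (0.992), IGFBP1 (0.990), SPANXB1 (0.989) and TLE1 (0.988). For B2M they were DHRS7 (0.988), GNPAT (0.986), JPT1 (0.977), ADAM9 (0.972) and NAAA (0.969). For TAP1 they were THOP1 (0.989), PLTP (0.986), HBEGF (0.981), TTC38 (0.978) and MCM2 (0.976), and for TAPBP they were NPIPB3 (0.992), GSTP1 (0.992), ZDHHC5 (0.987), PLEKHG2 (0.978) and ANKS6 (0.975). None of them is a gene of antigen presentation on the list. With 6 points and so many genes, correlations of this size are a description of these libraries. Among the 9 genes themselves, HLA-G left out for its low counts, HLA-F and TAPBP had an r of 0.89, and B2M had an r between -0.15 and 0.34 with the other genes.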
